A study of Mus musculus with 6 samples.

Results

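The genes described here are the enzymes that make prostaglandins and the receptors that read them, measured in the mouse uterus at weaning age with and without Nat10. The set holds 10 of the 20637 genes listed for each library, taken by gene symbol with no threshold on their values: the phospholipase gene Pla2g4a, the cyclooxygenase genes Ptgs1 and Ptgs2, the terminal synthase genes Ptges, Ptgis and Ptgds, and the receptor genes Ptger2, Ptger3, Ptger4 and Ptgfr. All 10 were listed in all 6 libraries. The study sequenced poly(A) RNA from whole uteri of female mice on postnatal day 21, with 3 libraries of genotype Nat10 f/f (floxed controls) and 3 of genotype Nat10 d/d (Nat10-deleted). Nat10 encodes an enzyme that acetylates cytidines in RNA. The labels do not name the Cre driver, the cells that carry the deletion or the mouse strain, and they do not say whether each library came from 1 animal, so p-values measure only the spread between these samples.

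Prostaglandins are lipid signals made from arachidonic acid. A phospholipase releases arachidonate from membranes, a cyclooxygenase converts it to the unstable prostaglandin H2, and terminal synthases turn that into PGE2, prostacyclin, PGD2 or PGF2-alpha. Each product acts on cells through its own G protein-coupled receptors. In the uterus this pathway is known for its roles in implantation, decidualization and the contractions of labour.

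The Ptgs1 and Ptgs2 promoters are shown because these genes encode alternative enzymes for the same step, and Ptgs1 was the far more abundant of the pair in every library. The sequences are RefSeq's for build GRCm38.p6 and run 5′ to 3′. The 250 bases before the annotated start were printed for each gene, at chr2:36230176-36230425 (plus strand) for Ptgs1 and at chr1:150099781-150100030 (plus strand) for Ptgs2, together with a short Ptgs2 stretch just after its start at chr1:150100039-150100056. Capitals mark motif matches.
Ptgs1: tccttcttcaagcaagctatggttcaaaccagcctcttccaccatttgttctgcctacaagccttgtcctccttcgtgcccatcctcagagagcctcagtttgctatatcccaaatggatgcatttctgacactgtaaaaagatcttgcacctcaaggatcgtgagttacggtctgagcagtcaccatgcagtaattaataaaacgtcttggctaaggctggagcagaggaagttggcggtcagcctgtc
Ptgs2: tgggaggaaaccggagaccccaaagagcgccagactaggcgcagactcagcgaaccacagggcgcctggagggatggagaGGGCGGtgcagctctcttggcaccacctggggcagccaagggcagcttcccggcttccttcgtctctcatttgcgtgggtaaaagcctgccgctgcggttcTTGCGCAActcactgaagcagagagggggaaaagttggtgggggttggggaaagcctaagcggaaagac
Ptgs2 after the start: cactACGTCACGTGgagt
In windows of 300 bases (250 before to 50 after a start), 5 motifs were searched on both strands. The E-box was spelled CACGTG, which is bound by bHLH factors. For the core of the cyclic AMP response element the search used ACGTCA, the site of the CREB family. A palindrome read by C/EBP factors was searched as TTGCGCAA in full. The letters of the GC box, a site of Sp factors, were GGGCGG throughout. The TATA box, which lies near many regulated starts, was searched as TATAAA here. Ptgs2 held 4 of them: the GC box, the C/EBP palindrome, and the E-box and cyclic AMP element core, which overlap each other in the last stretch. The E-box stands in 7.15% of the 32851 promoter windows of the table, the cyclic AMP element core in 7.51%, the C/EBP palindrome in 0.18% and the GC box in 35.66%. The Ptgs1 window held none of the 5, which says only that these letters are absent there. The Ptgs2 stretch before the start also carries an exon of the noncoding gene Ptgs2os, which runs the other way. Of the 10 genes 9 had a window in the table (Ptgis had none), and 5 of the 9 held the GC box: Ptger3, Ptger4, Ptges, Ptgfr and Ptgs2. The TATA box letters stand in 13.62% of all windows and, among these genes, only in a Pla2g4a window whose start lies inside the gene.

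Values are FPKM, fragments per kilobase of transcript scaled to the mapped fragments of each library, so levels of different genes can be set side by side per length. Total read counts are unknown, and relative depth estimated from the lowest values differed by 1.262 times between the deepest and the shallowest library, so precision rests on the spread between 3 libraries a group. Between 15431 and 15680 genes were above 0 in each library. Nat10, the targeted gene (ENSMUSG00000027185), averaged 13.2 ± 3.2 FPKM in controls against 5.45 ± 0.184 in deleted uteri (SD, n = 3 each), and the groups did not overlap (limma adjusted p 0.669, and 0.0386 with array quality weights). None of the 10 smooth muscle, 13 stromal or 14 epithelial markers was at 0 throughout. The 9 ovary markers summed to 38 to 38.7 FPKM in controls and 25.9 to 37 in deleted uteri, of which Foxl2 made up 27.9 on average in controls, while Cyp19a1, Fshr and Zp3 were listed at 0 in every library. Control replicate 1 stood apart in blood markers (5581 FPKM against 709 to 2629 elsewhere) and in fat markers (51 against 0.979 to 9.88). Deleted replicate 2 stood apart in proliferation markers (121 against 5.7 to 51).

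In the control uterus, the prostacyclin synthase gene was the most abundant of the 10, terminal synthases outside the 10 (such as Ptges3, given with the wider pathway) left aside. Ptgis, which encodes prostacyclin synthase (ENSMUSG00000017969), stood at 49.7 ± 3.37 FPKM (SD, n = 3), above 92.5% of all listed genes. Pla2g4a, the cytosolic phospholipase that releases arachidonate (ENSMUSG00000056220), followed at 33 ± 2.92, then the PGE2 receptor gene Ptger4 (ENSMUSG00000039942) at 22.9 ± 1.78 and Ptgs1 (ENSMUSG00000047250) at 15 ± 0.586 (SD, n = 3 each). The control ranges of these 4 genes did not overlap those of the next gene in the order. Ptger3 (ENSMUSG00000040016; 12 ± 0.454), Ptgfr (ENSMUSG00000028036; 11 ± 1.39) and Ptges (ENSMUSG00000050737; 8.89 ± 1.27) came next (SD, n = 3 each). The control range of Ptgfr overlapped that of Ptger3 and that of Ptges, so neighbours here were not separated beyond their spread. Ptger2 (ENSMUSG00000037759; 6.18 ± 1.19) lay below Ptges without overlap in controls. Ptgds (ENSMUSG00000015090; 0.694 ± 0.2) and Ptgs2 (ENSMUSG00000032487; 0.674 ± 0.207) were the lowest and overlapped each other (SD, n = 3 each).

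**Figure D1:**
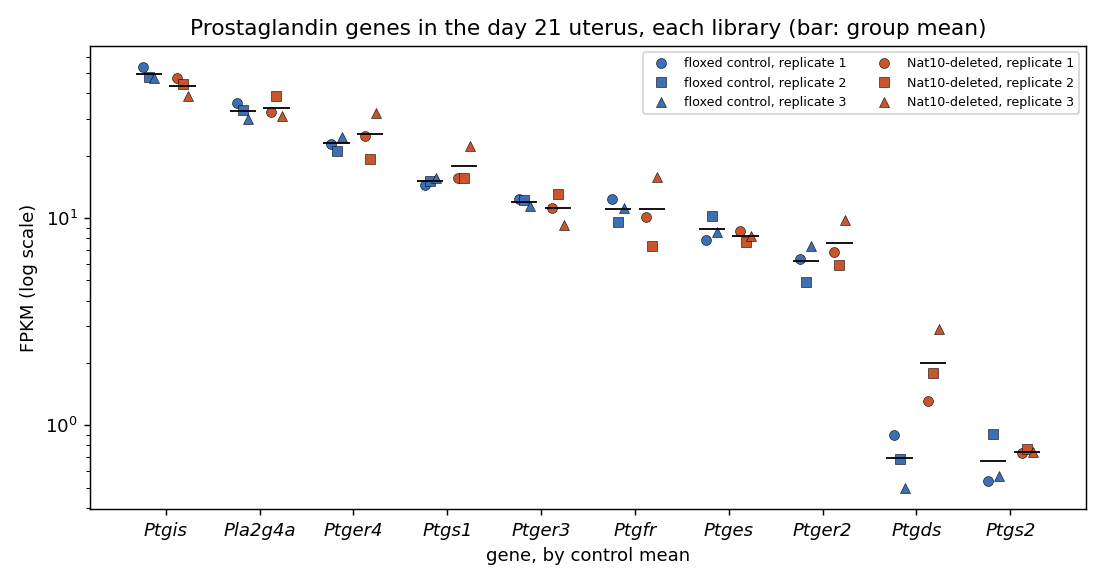
FPKM (log axis) of the 10 prostaglandin genes in each of the 6 libraries, ordered by control mean, with 1 symbol per library and a bar at each group mean. Ptgis is highest at 38.8 to 53.5, Ptgds and Ptgs2 lie below 3, and Ptgds is the only gene whose 2 groups do not overlap.

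At the phospholipase step, levels differed little between groups. Pla2g4a was 35.9, 33.1 and 30 FPKM in control replicates 1, 2 and 3, and 32.5, 38.8 and 31 in deleted replicates 1, 2 and 3. The highest value came from deleted replicate 2, and the groups overlapped. The log2 change of FPKM + 1 (deleted minus control) was 0.04, with a 95% interval of -0.25 to 0.34 (limma, all genes tested; adjusted p 0.989). Pla2g4a (chr1:149829618-149961290, minus strand) and Ptgs2 (chr1:150100031-150108227, plus strand) are neighbours on chromosome 1 (GRCm38), 138.7 kb apart with no protein-coding gene between them.

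At the cyclooxygenase step, Ptgs1 made up nearly all of the cyclooxygenase RNA in every library. Ptgs1, the constitutively expressed enzyme, was 14.4, 15.1 and 15.6 FPKM in controls and 15.5, 15.7 and 22.2 in deleted replicates 1, 2 and 3. Deleted replicate 3 stood above the rest, and deleted replicate 1 fell inside the control range. Ptgs2, the enzyme known to be induced by cytokines and growth signals, was 0.537, 0.911 and 0.572 FPKM in controls and 0.736, 0.766 and 0.74 in deleted uteri. All 3 deleted values lay inside the control range. The share of Ptgs1 in the sum of both genes ran from 94.3% to 96.8% over the 6 libraries, a ratio of 16.6 to 29.9. The log2 change of Ptgs1 was 0.21 (95% interval -0.14 to 0.56; limma adjusted p 0.926), and without deleted replicate 3 it was 0.05. Ptgs2 did not reach the low-value filter (at least 1 FPKM in at least 3 libraries). When the filter was dropped, its log2 change was 0.07 (95% interval -0.17 to 0.31; limma adjusted p 0.95 over 16745 genes).

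The terminal synthases, all on chromosome 2 (Ptgds at chr2:25466709-25470046, Ptges at chr2:30889471-30929863 and Ptgis at chr2:167191805-167240604, minus strand), included the gene that differed most. Ptgds, which encodes the lipocalin-type PGD2 synthase, was 0.898, 0.687 and 0.498 FPKM in control replicates 1, 2 and 3 and 1.31, 1.78 and 2.91 in deleted replicates 1, 2 and 3. Every deleted library lay above every control, and the deleted mean was 288% of the control mean. The log2 change of FPKM + 1 was 0.80 (SE 0.23; 95% interval 0.25 to 1.34), with an unadjusted p of 0.0103 and an adjusted p of 0.922 from limma, so it did not pass the threshold over all genes. The exact permutation test over libraries (two-sided) returned p = 0.1, its minimum for groups of 3. The change was 0.59 without deleted replicate 3 and 0.97 without deleted replicate 1. All 3 control values were below 1 FPKM and all 3 deleted values above it, so Ptgds passed the low-value filter only through the deleted group. Without that filter its log2 change was the same and its adjusted p 0.873 (limma). Its level also stayed small beside the other synthases: Ptgds was 0.881% to 1.44% of the summed FPKM of Ptges, Ptgis and Ptgds in controls and 2.27% to 5.84% in deleted uteri (exact permutation p 0.1, two-sided).

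Of the 9 prostaglandin genes tested, none passed an adjusted p of 0.05 in limma, where the background was 0% of the 12640 genes tested. Ptgds was the single one with an unadjusted p under 0.05, against 4.98% of all genes tested (2.68% higher and 2.30% lower). It was also the single one whose groups did not overlap, against 10.7% of all genes (6.12% higher and 4.60% lower). Here 1 gene of 9 is 11.1%, a count too small to set the list apart from those shares. Both counts also rest on Ptgds, which passed the low-value filter only through the deleted group, so they lend no support to a difference. The median log2 change was 0.04 over the 9 and 0.03 over all genes tested.

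Ptgis was 53.5, 48.1 and 47.4 FPKM in controls and 47.6, 44.4 and 38.8 in deleted replicates 1, 2 and 3. The 2 lowest values were deleted libraries, but deleted replicate 1 lay inside the control range. The log2 change was -0.19 (95% interval -0.46 to 0.09; limma adjusted p 0.922), and -0.11 without deleted replicate 3. Ptges, the inducible microsomal PGE2 synthase gene, was 7.8, 10.3 and 8.58 FPKM in controls and 8.67, 7.66 and 8.18 in deleted uteri. The groups overlapped, and the highest value was control replicate 2. Its log2 change was -0.10 (95% interval -0.40 to 0.20; limma adjusted p 0.953), -0.0035 without control replicate 2 and -0.18 without control replicate 1. Ptgis exceeded Ptges by 4.67 to 6.86 times in every library of either genotype.

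**Figure D2:**
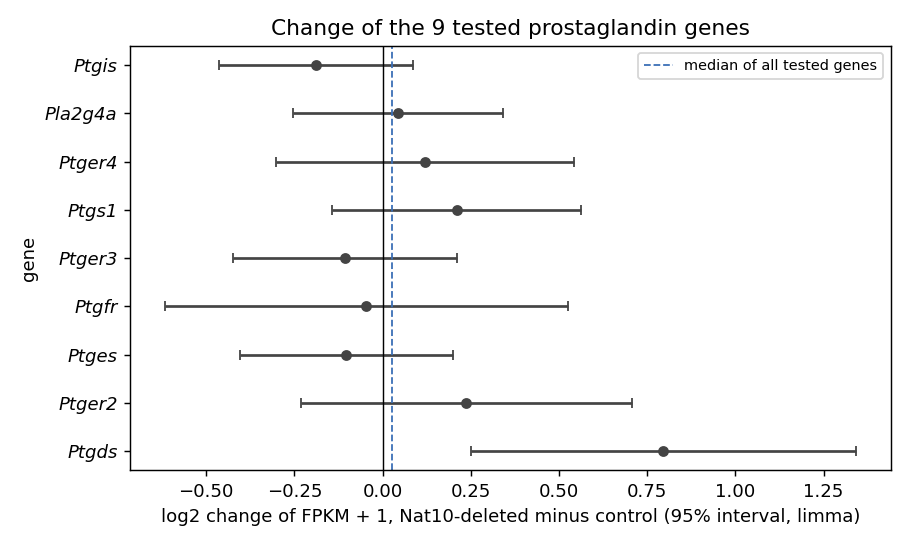
Log2 change of FPKM + 1 (Nat10-deleted minus control, x axis) with its 95% interval from limma for the 9 tested prostaglandin genes (y axis); the dashed line is the median of all tested genes. The interval of Ptgds, 0.25 to 1.34, lies above 0, and those of the other 8 genes include 0.

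The PGE2 receptor genes showed a stable order in controls and more scatter among deleted uteri, as did 73.9% of all genes tested for scatter. Ptger4 and Ptger2 encode the EP4 and EP2 receptors, which raise cyclic AMP, while Ptger3 encodes EP3, which mainly lowers it. Ptger4 was 22.9, 21.1 and 24.7 FPKM in controls and 25, 19.3 and 32.1 in deleted replicates 1, 2 and 3. Deleted replicate 3 was the highest and deleted replicate 2 the lowest of all 6. The log2 change was 0.12 (95% interval -0.30 to 0.54; limma adjusted p 0.967), and it was -0.05 without deleted replicate 3. Ptger2 was 6.33, 4.93 and 7.29 FPKM in controls and 6.82, 5.96 and 9.83 in deleted uteri. Deleted replicate 3 was again highest, and the other 2 deleted libraries lay inside the control range. The log2 change of Ptger2 was 0.24 (95% interval -0.23 to 0.71; limma adjusted p 0.939), falling to 0.05 without deleted replicate 3. Ptger3 was 12.3, 12.2 and 11.5 FPKM in controls and 11.2, 13 and 9.27 in deleted uteri. Here deleted replicate 3 was the lowest and deleted replicate 2 the highest, the opposite of Ptger4. The log2 change of Ptger3 was -0.11 (95% interval -0.42 to 0.21; limma adjusted p 0.953), and 0.01 without deleted replicate 3.

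Set against each other within a library, the 4 PGE2 receptor genes (Ptger1, which encodes the calcium-linked EP1 receptor, included) kept Ptger4 in first place and Ptger3 second everywhere except where Ptger2 passed Ptger3 in deleted replicate 3. Ptger4 held 47.3% to 47.8% of their summed FPKM in controls, and 52.9%, 42.2% and 57.2% in deleted replicates 1, 2 and 3. No deleted library fell inside that narrow control range, but they left it in both directions (exact permutation p 0.7, two-sided). Ptger3 held 22.2% to 27.3% in controls and 23.7%, 28.4% and 16.5% in deleted uteri. The ratio of Ptger4 to Ptger3 was 1.73 to 2.16 in controls and 2.23, 1.48 and 3.47 in deleted replicates 1, 2 and 3.

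**Figure D3:**
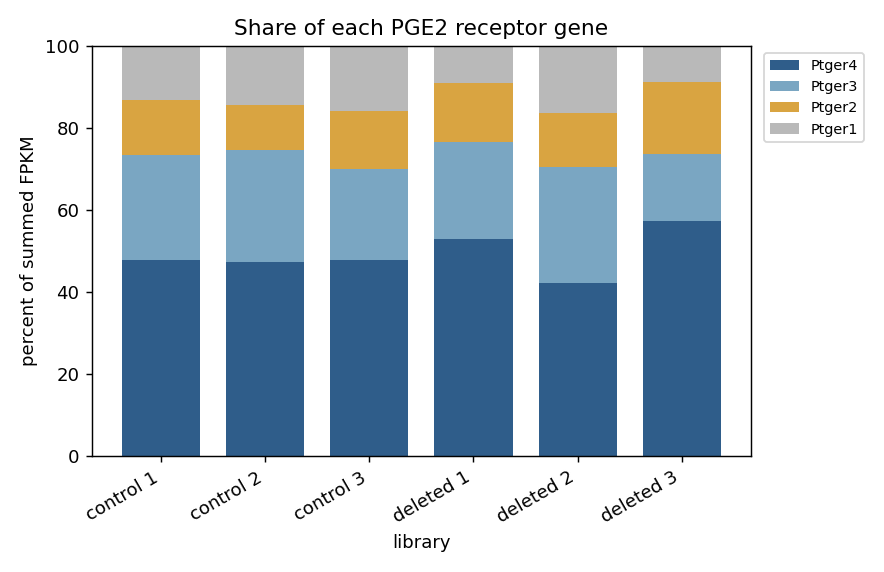
Stacked bars show the percent of the summed FPKM of the 4 PGE2 receptor genes (y axis) held by each gene in each library (x axis). Ptger4 takes 47.3% to 47.8% in the 3 controls and between 42.2% and 57.2% in the 3 deleted libraries.

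Ptgfr encodes the PGF2-alpha receptor, which drives contraction of uterine muscle. It was 12.3, 9.55 and 11.2 FPKM in controls and 10.1, 7.35 and 15.8 in deleted replicates 1, 2 and 3. The deleted group held both the lowest and the highest value of the 6. Its log2 change was -0.05 (95% interval -0.62 to 0.52; limma adjusted p 0.992), 0.19 without deleted replicate 2 and -0.31 without deleted replicate 3.

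Deleted replicate 3 thus set the extreme for much of the pathway. It was the highest library for 5 of the 10 genes (Ptgs1, Ptgds, Ptger2, Ptger4 and Ptgfr) and the lowest for Ptgis and Ptger3. Over all genes tested, it was highest for 22.1% and lowest for 16%. Deleted replicate 2 was the highest for Pla2g4a and Ptger3 and the lowest for Ptges, Ptger4 and Ptgfr. Over all genes tested it was highest for 30.1% and lowest for 25.7%, more than any other library. Among tested genes of this pathway, 8 of 9 varied more among deleted than among control libraries, against 73.9% of all genes tested. The median ratio of the SDs (log2 scale) was 2.25 against 1.73. Ptgs2, which was not tested, varied less among deleted libraries (SD 0.0164 FPKM against 0.207 in controls). The 9 immediate early genes, which respond to tissue handling, summed to 218 FPKM in deleted replicate 3, to 147 and 136 in deleted replicates 1 and 2, and to 146 to 156 in controls. In deleted replicate 3, 6 of the 9 were at their highest, and Jun (104) and Ier2 (40.1) made up most of the sum. Fos, Fosb and Atf3 were not highest there. Fos was 1.8, 3.43 and 3.5 FPKM in controls and 5.62, 6.01 and 5.86 in deleted uteri, without overlap (limma unadjusted p 0.0036, adjusted p 0.922). The summed stromal markers were 3427 in deleted replicate 3, below the control range of 4340 to 4957, and 3574 and 4908 in deleted replicates 1 and 2. The summed smooth muscle markers were 3928 in deleted replicate 3 and 4212 to 4834 in controls. Epithelial markers summed to 899 there, the highest of the 6 libraries, against 704 to 806 in controls. Between groups, on the log2(FPKM + 1) scale, 10 of 14 epithelial markers had higher means in deleted uteri. In contrast, 12 of 13 stromal and 9 of 10 endothelial markers had lower ones. Smooth muscle markers split into 5 higher and 5 lower, and tested mesothelial markers into 3 and 3. Of all 12640 genes tested, 7154 had higher means and 5486 lower ones. On the same log2 scale, 7 of 8 tested immediate early genes had higher means in deleted uteri (median log2 change 0.26). All 5 blood markers (median -0.98) and all 5 tested proliferation markers (median -0.30) had lower ones. The direction for proliferation depended on the scale, since the mean FPKM of all 5 was higher in deleted uteri. Top2a was 18.2, 4.72 and 11.7 FPKM in controls and 3.7, 48.5 and 1.95 in deleted replicates 1, 2 and 3. The part of handling or tissue makeup in the values of the 10 prostaglandin genes was not tested. In whole tissue, fewer cells of a type and less RNA per cell cannot be told apart.

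**Figure D4:**
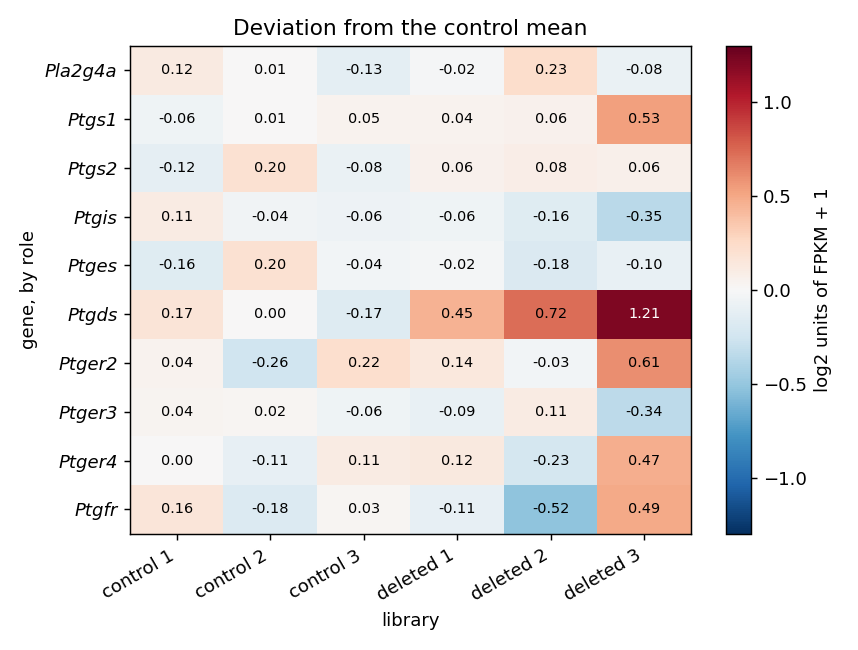
Deviation of each library from the control mean (log2 units of FPKM + 1, colour and printed number) for the 10 genes (rows, by role) and the 6 libraries (columns). Deleted replicate 3 stands out at 0.53 for Ptgs1, 1.21 for Ptgds, 0.61 for Ptger2 and -0.34 for Ptger3.

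Genes whose levels followed Ptgds and Ptgis most closely over the 6 libraries were looked up by Pearson's r of log2 values, as a description. For Ptgds they were Hexim2 (r = 0.999), Npy1r (0.996) and Hook1 (0.995). Hook1 was 9.44, 8.18 and 7.22 FPKM in control replicates 1, 2 and 3 and 10.3, 11.9 and 15.6 in deleted replicates 1, 2 and 3, the same order as Ptgds. In all, 83 of the genes tested had r above 0.9 with Ptgds and 21 with Ptgis. For Ptgis the closest were Fam172a (0.961), Sapcd1 (0.959) and Gpr4 (0.958). All genes are subject to the same differences of depth and group between the 6 libraries. With so few points, high values of r arise readily among 12640 genes. The count above 0.9 for a typical gene was not computed, so 83 and 21 have no background.

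The rest of the pathway was read from a list of 52 further genes, of which 38 were tested. None passed the adjusted threshold in limma. The unadjusted p was under 0.05 for 1 of them, which was lower. The groups did not overlap for 5 genes, 1 higher and 4 lower, and the median log2 change was -0.02. These counts are 2.63% and 13.2% of the genes tested, beside 4.98% and 10.7% of all genes.

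Among other sources of arachidonate, Daglb, a diacylglycerol lipase gene, was 5.27 ± 0.508 FPKM in controls against 4.04 ± 0.137 in deleted uteri (SD, n = 3 each), without overlap. Its log2 change was -0.31 (SE 0.12; limma unadjusted p 0.0361, adjusted p 0.922). Plcg1, the most abundant tested gene of that class, was 26.1 ± 1.22 and 26.9 ± 8.66 (SD, n = 3 each). The 5 tested phospholipases A2 other than Pla2g4a had log2 changes between -0.13 and 0.00, the most abundant being Pla2g15 at 14.6 ± 0.943 FPKM in controls (SD, n = 3).

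Tbxas1, the thromboxane synthase gene, was 1.17, 1.71 and 2.15 FPKM in controls and 0.959, 1.12 and 1.11 in deleted uteri, a log2 change of -0.36 (limma unadjusted p 0.0966, adjusted p 0.922). Tbxa2r, the thromboxane receptor gene, was 8.95, 10.6 and 9.03 FPKM in controls and 8.17, 7.72 and 8.31 in deleted uteri, a log2 change of -0.21 (limma unadjusted p 0.0995, adjusted p 0.922). Neither reached an adjusted or unadjusted p of 0.05, and for each gene the groups did not overlap. Thromboxane synthase is also a platelet and macrophage gene. The 5 platelet markers summed to 13.9 to 19 FPKM in controls and to 11.4, 21 and 6.08 in deleted replicates 1, 2 and 3, most of it Pf4 (5.01 in deleted replicate 3), while the defining gene Ppbp was near or at 0 in all 6 libraries. The 14 macrophage and leukocyte markers summed to 178 to 247 in controls and 190.5 to 240 in deleted uteri. The part of either in the thromboxane values was not tested.

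The 7 tested genes among the other terminal synthases had log2 changes from -0.41 to 0.25. Ptges3, the cytosolic PGE2 synthase and cochaperone gene, was the highest of them at 64.1 ± 18.7 FPKM in controls against 75.8 ± 19.3 in deleted uteri (SD, n = 3 each; log2 change 0.25, limma adjusted p 0.946). Hpgds, the hematopoietic PGD2 synthase gene, was 7.02, 8.52 and 8.22 FPKM in controls and 8.39, 1.53 and 11.7 in deleted replicates 1, 2 and 3. Deleted replicate 2 was thus far below the other 5 libraries, and the log2 change of -0.41 had an adjusted p of 0.954 (limma). Of the PGD2 receptors, Ptgdr was 1.31, 1.07 and 1.19 FPKM in controls and 2.32, 1.17 and 2.31 in deleted uteri. Ptgdr2 was 4.44, 2.77 and 5.04 in controls and 2.31, 2.51 and 5.27 in deleted uteri. Both overlapped between groups. Hpgds was described because it encodes the other PGD2 synthase, and Ptgdr and Ptgdr2 because PGD2 is their ligand, a choice made after values were seen.

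The prostacyclin receptor gene Ptgir stood at 1.44 to 1.98 FPKM in controls and 1.25 to 2.34 in deleted uteri, so that Ptgis exceeded it 20.3 to 35.5 times. Ptgfrn, whose product binds and dampens the PGF2-alpha receptor, was the highest of the receptor class at 60.5 ± 3.94 in controls against 53.6 ± 9.3 in deleted uteri (SD, n = 3 each). Hpgd, which begins prostaglandin breakdown, was 40.4 ± 7.07 and 42.3 ± 4.28 FPKM (SD, n = 3 each; log2 change 0.08, limma adjusted p 0.982). Slco3a1, an organic anion transporter gene, was 9.47 ± 0.307 in controls against 8.5 ± 0.609 in deleted uteri (SD, n = 3 each), without overlap (log2 change -0.14, limma unadjusted p 0.22). On the lipoxygenase side, Alox12e was 6.47, 4.48 and 6.49 FPKM in controls and 7.57, 6.66 and 10.1 in deleted uteri, also without overlap (log2 change 0.42, limma unadjusted p 0.0612, adjusted p 0.922). Lta4h, which makes leukotriene B4, was the most abundant gene of that arm at 45.7 ± 1.68 in controls against 46.6 ± 4.71 in deleted uteri (SD, n = 3 each).

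**Figure D5:**
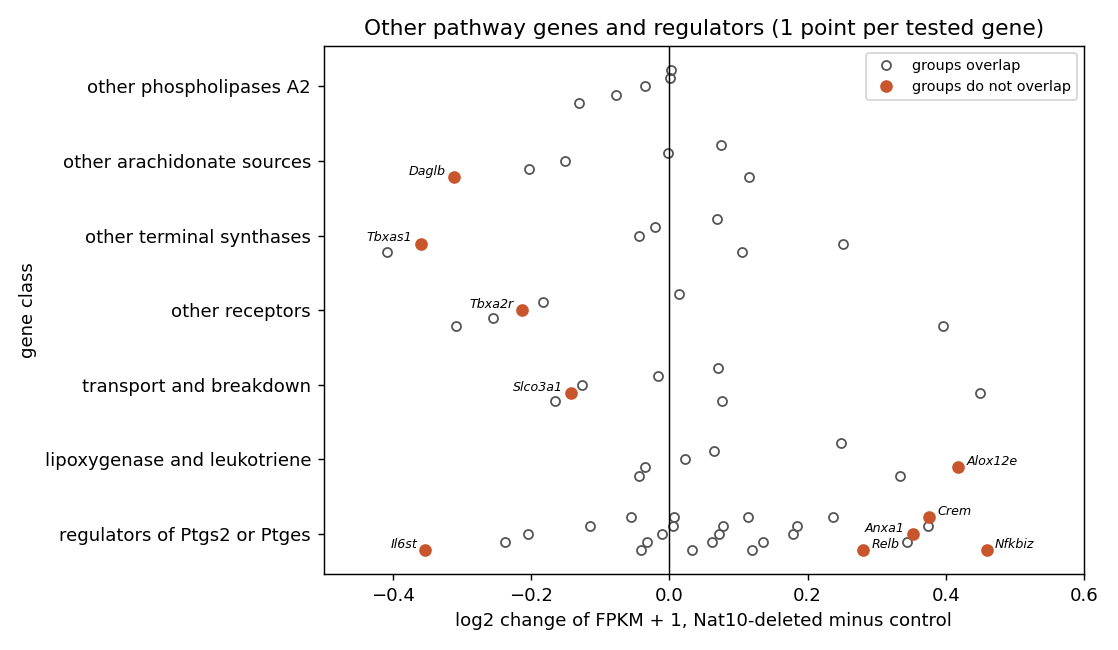
Log2 change of FPKM + 1 (Nat10-deleted minus control, x axis) of each tested gene of the wider pathway and regulator lists, by class (y axis); filled points are genes whose groups do not overlap. Of the 38 pathway genes 5 are filled (4 lower, 1 higher), and of the 26 regulators 5 are filled (4 higher, 1 lower).

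Regulators known to act on Ptgs2 or Ptges were read from a second list of 31 genes, of which 26 were tested. None passed the adjusted threshold in limma. The unadjusted p was under 0.05 for 4 of them (3 higher, 1 lower). The groups did not overlap for 5 tested genes (4 higher, 1 lower), and the median log2 change was 0.07. These counts are 15.4% and 19.2% of the regulators tested, beside 4.98% and 10.7% of all genes. The list was drawn up with earlier results of these data known, so the difference in share was given no test. The cytokine genes that usually induce Ptgs2 were near the floor: Il1a, Il1b, Tnf and Il6 stayed below 0.4 FPKM in every library, too low to be tested. Il1b was 0.107, 0 and 0 FPKM in controls and 0.133, 0.212 and 0.257 in deleted uteri, so its groups did not overlap at these low values. Nfkbiz, an inducible partner of NF-kappaB, was 5.26, 6.45 and 6.38 FPKM in controls and 9.97, 8.42 and 7.65 in deleted uteri (log2 change 0.46, SE 0.14, limma unadjusted p 0.0114, adjusted p 0.922). Crem, a cyclic AMP response factor gene, was 6.66, 8.14 and 7.63 in controls and 10.8, 9.54 and 9.63 in deleted uteri (log2 change 0.38, limma unadjusted p 0.0143, adjusted p 0.922). All 3 deleted libraries exceeded all 3 controls for both genes.

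Anxa1, whose product restrains phospholipase A2, was the most abundant regulator and also lay higher without overlap. It was 186, 159 and 170 FPKM in controls and 216, 253 and 193 in deleted uteri (log2 change 0.35, limma unadjusted p 0.0326, adjusted p 0.922). Relb, an NF-kappaB subunit gene, was 8.04, 8.89 and 8.21 in controls and 11.9, 9.59 and 9.8 in deleted uteri (log2 change 0.28, limma unadjusted p 0.0514, adjusted p 0.922). Il6st, the shared receptor subunit of the interleukin 6 family, was the one lower gene at 131, 133 and 149 in controls and 97.7, 104 and 122 in deleted uteri (log2 change -0.35, limma unadjusted p 0.0225, adjusted p 0.922). The groups of neither gene overlapped. With array quality weights, which let noisier libraries count less, Nfkbiz, Crem and Il6st passed the threshold in limma (adjusted p 0.0418, 0.048 and 0.0489), and no prostaglandin gene did. Under those weights 2.50% of all genes tested passed, and 29.5% had an unadjusted p under 0.05.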

How the data were processed

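The deposited tables give 1 value per gene for each of 6 poly(A) RNA libraries (TRIzol extraction and an Illumina TruSeq RNA kit, per the labels' protocols). Per the submitters' processing notes, HISAT2 2.2.1, Cufflinks 2.2.1 and build mm10 were used, with no role stated. The values deposited by the authors were taken as FPKM, a unit inferred from Cufflinks and the values, which sum to between 500764 and 549263 per library. Annotation, strand setting and gene filters are not given in the sources used here. Without strand, reads of overlapping antisense genes cannot be told apart: exons of Ptgs1, Ptgis, Ptger2, Ptger4 and Ptgfr overlap exons on the opposite strand in GENCODE M21, which matched 99.62% of identifiers and gave positions.

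Groups and replicate numbers came from sample titles. Genes with at least 1 FPKM in at least 3 libraries (12640) were fitted as log2(FPKM + 1) in limma 3.58.1 (R 4.3.3; trend, group as the only term), two-sided, Benjamini-Hochberg over all genes. Fold changes on this scale understate changes of low genes. On simulated data for this comparison, 85.9% of 200 genes shifted by 1.5 log2 units among 12640 were recovered, with 4.5% false calls. Recovery of smaller shifts was not tested. The log2 changes of Ptgds (0.80) and Nat10 (-1.11) were smaller than 1.5, so 85.9% does not apply to them. Single values were compared by exact permutation. The labels do not say whether same-numbered samples were paired. Their deviations from group means correlated at -0.34, -0.03 and 0.10, and those of differently numbered samples at -0.24 to 0.27. With 3 libraries a group these values cannot exclude a pairing. No libraries held identical values. The members and lists were chosen with earlier results of these data known. The rule for named genes took Nat10, all 10 members, tested list genes without overlap or with an unadjusted p under 0.05, the most abundant gene of each class, and for the 2 members with the smallest p the 3 most correlated genes. Outside this rule, Ptger1, Ptgir, Hpgds, Ptgdr, Ptgdr2, Il1a, Il1b, Il6, Tnf and single marker genes were named after their values were seen. Python 3.11.15 (pandas 2.3.3, numpy 2.4.6, matplotlib 3.10.9) joined and drew the data. Alternatives were other scalings, filters, pseudocount, variance steps, weights, a replicate block and leaving out each library.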

Additional observations from a re-analysis of the deposited data

How the results depend on the processing

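The absence of called genes held under quantile normalization, median centring, upper-quartile scaling, other low-value filters, a pseudocount of 0.1, no variance trend, a robust step and scaling each library to 1 common total (chosen after seeing the data): each gave 0 genes. At an unadjusted p of 0.05 there were 630, a count that moved to 3730 with array quality weights, 1726 without deleted replicate 2 and 1403 without deleted replicate 3, and to 352, 359 and 353 without deleted replicate 1, control replicate 1 and control replicate 3. Of the wider list 1 gene had an unadjusted p under 0.05, against 5 without deleted replicate 2, 8 with array quality weights and 2 with no low-value filter or with the replicate block. Of the regulators there were 4, against 10 with array quality weights and 3 to 6 when 1 library was left out. Of the prostaglandin genes there was 1 under every setting. Array quality weights gave 316 genes, 3 of them regulators and none of the wider list. Leaving out 1 library gave 0 to 12 genes, the 12 without deleted replicate 2. With the replicate block 0 genes passed, and Ptgds had a log2 change of 0.80 (limma adjusted p 0.849). The block changed no call. Over all settings the adjusted p of Ptgds in limma ran from 0.111 (array quality weights, log2 change 0.52) to 1.00 (without control replicate 3), and its change from 0.52 to 1.36 (pseudocount 0.1), higher in all 11 settings other than leaving out a library. Ptges was -0.011 with array quality weights. Small changes turned direction: Pla2g4a was -0.0039 after quantile normalization, -0.033 with array quality weights and -0.015 when scaled to a common total, and -0.050 to 0.11 when 1 library was left out. Leaving out 1 library gave -0.21 to 0.0098 for Ptger3, -0.054 to 0.30 for Ptger4 and -0.31 to 0.19 for Ptgfr. The cause was not tested. Tests that need counts were not run, since the values are FPKM. Depth is unknown, so counting error of low genes such as Ptgs2 and Ptgds could not be given.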
